A study of Mus musculus with 3 samples.

Results

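Injured sensory neurons were taken as neurons of the mouse dorsal root ganglion (DRG) that held RNA of Atf3 or Sprr1a, and they made up 126 of the 501 neurons found among 9662 cells. Barcodes counted as cells where 500 or more genes were detected and no more than 20% of the unique molecular identifiers (UMIs, each standing for 1 captured RNA molecule) came from mitochondrial genes. A neuron had a UMI of at least 3 of the 6 neuronal genes Snap25, Rbfox3, Scn9a, Stmn2, Prph and Uchl1, and these genes together took at least 0.1% of its UMIs. An injured neuron held at least 2 UMIs of Atf3 and Sprr1a together, at a level of at least 50 CPM, which is UMIs of the gene per 1000000 UMIs of the cell. The injured neurons were thus selected on the measured values of Atf3 and Sprr1a in each cell, so the levels of Atf3 and Sprr1a describe the choice, and all other genes were read in the same cells that the choice was made on. The other 375 neurons served as the comparison, always within the same library.

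The series held 3 libraries of dissociated lumbar L3 and L4 DRGs, 1 from naïve mice, 1 from mice 7 days after spared nerve injury (SNI) and 1 from mice 14 days after SNI. All mice were C57BL/6J males in postnatal week 13, and the injured mice had SNI, in which branches of the sciatic nerve are cut and another is left intact, on both sides. Each library pooled 8 DRGs from 2 mice, so a condition had no replicate, the mice could not be separated, and no value below carries a test or a p-value between conditions. The DRGs after SNI also hold neurons whose axons were spared, and no label tells these apart from the cut ones.

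DRG neurons carry touch, temperature, itch and pain signals from skin, muscle and organs to the spinal cord through a long peripheral axon. When that axon is cut, the cell body is known to start a growth program. Atf3, a stress-induced transcription factor of the ATF/CREB family, is a widely used mark of axon injury in these cells, and Sprr1a, a small proline-rich protein first known from skin, is known to favour axon growth.

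The promoters of the 2 genes that chose the cells, and of the neuropeptide gene Nts, are shown because ATF and Jun family proteins are known to bind AP-1 letters (TGACTCA on either strand, so also TGAGTCA) and CRE letters (TGACGTCA), and capitals mark these letters where a search found them. The sequences are those of RefSeq on build GRCm38.p6, from 250 bases before to 50 bases after the start of the gene, each read 5′ to 3′ on the strand of its gene. The windows are chr3:92485832-92486131 on the minus strand for Sprr1a, chr1:191183284-191183583 on the minus strand for Atf3 and chr10:102490369-102490668 on the minus strand for Nts.
Sprr1a: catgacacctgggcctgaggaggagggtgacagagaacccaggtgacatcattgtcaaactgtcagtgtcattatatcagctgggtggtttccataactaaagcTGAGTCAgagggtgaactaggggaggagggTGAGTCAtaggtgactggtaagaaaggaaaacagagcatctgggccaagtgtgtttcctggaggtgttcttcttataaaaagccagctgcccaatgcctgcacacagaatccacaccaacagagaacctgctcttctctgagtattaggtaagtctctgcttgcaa
Atf3: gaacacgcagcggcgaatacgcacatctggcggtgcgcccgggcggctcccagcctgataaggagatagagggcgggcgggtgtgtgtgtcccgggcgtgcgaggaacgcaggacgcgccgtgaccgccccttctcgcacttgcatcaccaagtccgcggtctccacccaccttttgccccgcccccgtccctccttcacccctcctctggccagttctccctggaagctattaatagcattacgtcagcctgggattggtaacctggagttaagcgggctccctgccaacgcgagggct
Nts: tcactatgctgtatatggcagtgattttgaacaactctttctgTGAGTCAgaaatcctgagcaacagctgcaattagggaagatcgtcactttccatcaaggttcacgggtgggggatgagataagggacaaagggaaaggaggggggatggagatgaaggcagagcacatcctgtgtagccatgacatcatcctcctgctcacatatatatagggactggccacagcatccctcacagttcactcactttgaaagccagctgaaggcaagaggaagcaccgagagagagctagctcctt
The Sprr1a window held the AP-1 letters at 2 places, whose first bases lie at -146 and -116 from the start, the Nts window held them at 1 place, at -207, and neither set of letters was in the Atf3 window. The AP-1 letters were in 5.2% of all 32851 promoters of the table and in 3.48% of the promoters of genes measured here. Of the 180 promoters matched to 137 of the 186 genes that were higher in injured neurons at both days, 10 (5.56%) held them, those of Clic1, Ddit3, Gldn, Mt2, Nudt9, Rnh1, Rtn4, S100a11, Srxn1 and Zyx, against 13 of 373 (3.49%) for the genes that were lower. The CRE letters were in 4 of the 180 promoters (2.22%), in 4 of the 373 (1.07%) and in 3.15% of those of measured genes. A match of letters is a description and shows neither a bound site nor a cause, and its absence says only that the letters are not in this window.

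Injured neurons were 6 of 129 neurons in the naïve library (4.65%, 95% Clopper-Pearson interval 1.73% to 9.85%), 87 of 224 at day 7 (38.8%, 32.4% to 45.6%) and 33 of 148 at day 14 (22.3%, 15.9% to 29.9%). These and all further intervals cover counting error only and hold nothing of the spread between mice. Both genes were found in 3, 48 and 29 of these cells. Atf3 alone was found in 3, 2 and 4 of them, and Sprr1a alone in 0, 37 and 0. The day 7 cells with Sprr1a alone all held fewer than 20000 UMIs.

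Depth set these cells apart between the libraries. The median depth of injured neurons was 76735 (naïve), 1869 (day 7) and 99468 UMIs (day 14), and the other neurons held 54254, 2655 and 71980. The median number of detected genes was 8575, 1188 and 9508 in injured neurons and 7875, 1513 and 8648 in the others. The median mitochondrial share of injured neurons was 7.68%, 12.4% and 7.36%. The day 7 median was thus low in both kinds of neuron, as 76 of 87 injured and 96 of 137 other neurons held fewer than 20000 UMIs. The rest of the day 7 neurons had a median of 97151 UMIs in injured and 100874 in other neurons. Among neurons of at least 20000 UMIs, called deep from here on, injured neurons were 6 of 96 (6.25%, 2.33% to 13.1%), 11 of 52 (21.2%, 11.1% to 34.7%) and 27 of 110 (24.5%, 16.8% to 33.7%). The intervals of the 2 injured libraries overlapped and lay above the naïve point value. That of day 7 also overlapped the naïve interval, and that of day 14 did not. Among shallower neurons the shares were 0 of 33 (0% to 10.6%), 76 of 172 (44.2%, 36.6% to 51.9%) and 6 of 38 (15.8%, 6.02% to 31.3%). The higher share at day 7 over all depths was therefore found in shallow cells and not in deep ones. The deep injured neurons nevertheless held 84.8% of the UMIs of all injured neurons at day 7 and 98% at day 14, so summed levels mostly describe them.

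**Figure D1:**
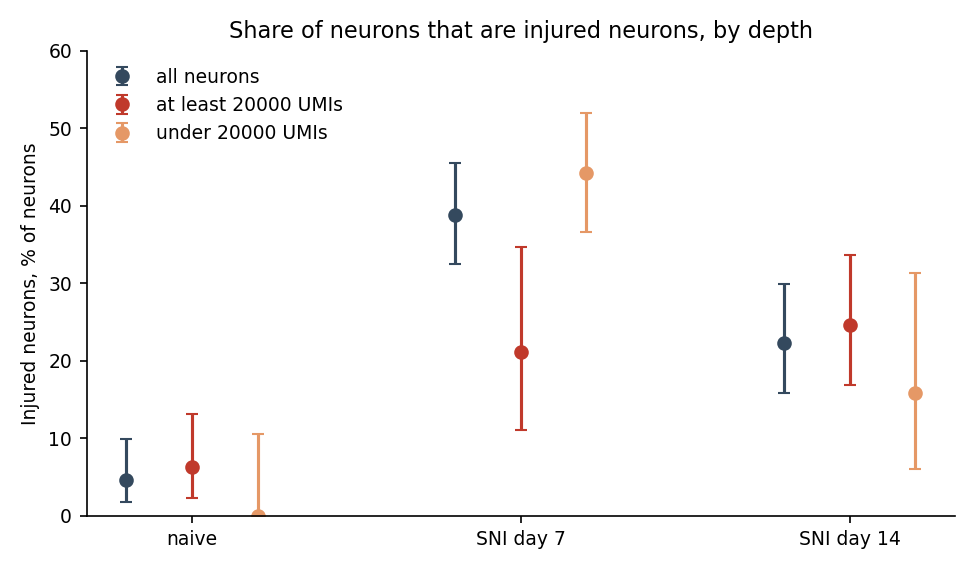
Share of neurons that are injured neurons (y axis, percent) in the naïve, day 7 and day 14 libraries, for all neurons, those of at least 20000 UMIs and those under 20000 UMIs, with 95% Clopper-Pearson intervals for counting error. At day 7 the share was 21.2% in deep and 44.2% in shallower neurons, and at day 14 it was 24.5% and 15.8%.

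In the sum over injured neurons, Atf3 stood at 143 CPM in the naïve library, 721 at day 7 and 419.9 at day 14, against 3.88, 7.91 and 6.46 CPM in the other neurons. Sprr1a stood at 119.6, 2812 and 1113 CPM, against 0, 10.8 and 1.77 CPM. These levels follow from the choice of cells. In the naïve library 95.1% of the Sprr1a UMIs came from 1 cell. Near the limit of the choice, the lowest injured neuron of each library held Atf3 and Sprr1a at 52.2, 82.7 and 113 CPM, and the highest other neuron with at least 2 UMIs held 36.9, 44.1 and 47.4 CPM. The median injured neuron lay at 82.5, 2153 and 1465 CPM. At day 7, 23 injured neurons held exactly 2 UMIs of the genes, and no injured neuron of the other libraries did. A further 13, 54 and 22 neurons held 1 UMI and were counted as other neurons.

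**Figure D2:**
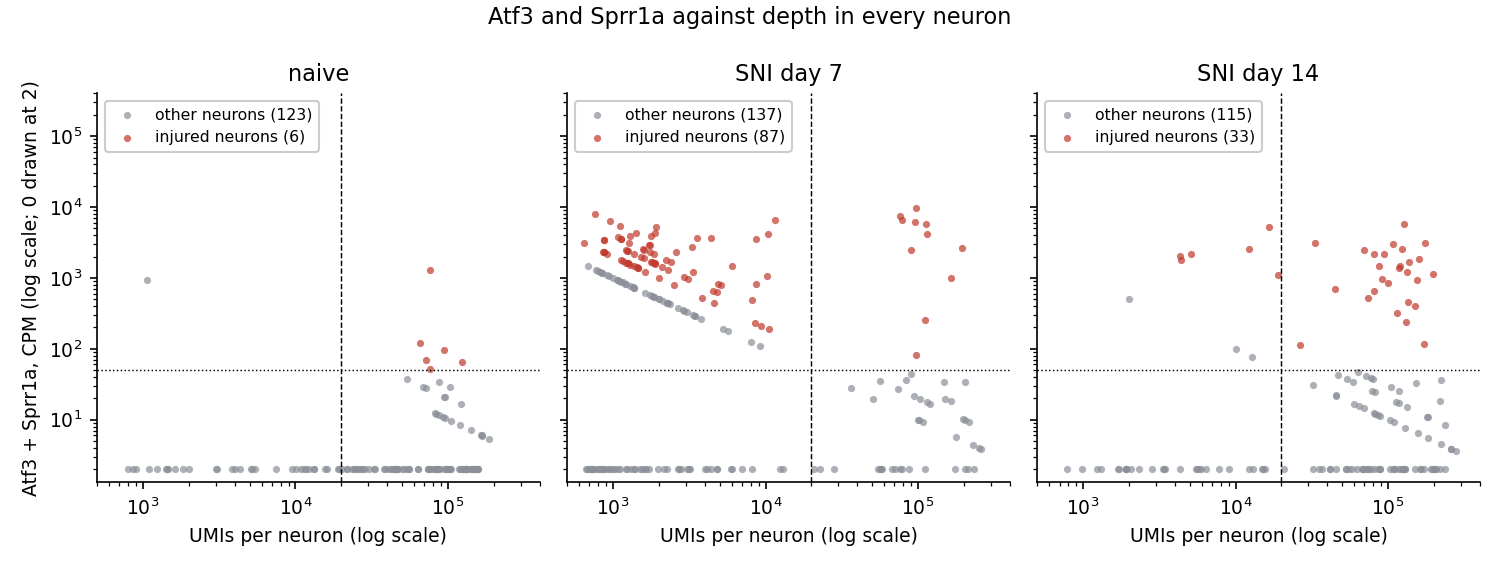
Each point is 1 neuron of the naïve, day 7 or day 14 library, with its UMIs on the x axis and its summed Atf3 and Sprr1a level in CPM on the y axis, both on log scales, with 0 drawn at 2 CPM. The dotted line marks 50 CPM and the dashed line 20000 UMIs, and at day 7 most injured neurons (76 of 87) lie left of the dashed line.

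Free RNA can place UMIs in cells that do not make them, so cells outside the neurons were read as a background. Sprr1a was found in 0%, 2.36% and 1.74% of the cells that were no neurons, whose median depth was 3002, 4098.5 and 4092 UMIs, at summed levels of 0, 4.81 and 3.57 CPM. Atf3 stood at 5.18, 5.11 and 13.1 CPM there. Of these cells 7 of 3023 (0.232%), 11 of 2458 (0.448%) and 38 of 3680 (1.03%) met the Atf3 and Sprr1a limits. The 76 shallow injured neurons of day 7, of a median depth of 1762.5 UMIs, held Sprr1a at 1732 CPM. The 96 other shallow neurons of that library held it at 165 CPM, with 1 UMI in each of 38 cells. This is above the level in cells that were no neurons and above the 11.2 CPM of the other shallow neurons at day 14. The background is limited, as the neuron criterion had taken barcodes with RNA of several neuronal genes out of it. Its cells were also deeper than the other shallow neurons of day 7, whose median was 1514 UMIs. At day 7 UMIs of Sprr1a were thus also counted in comparison cells of low depth. Whether they came from these cells or from free RNA was not tested. The division between the kinds of cell was less sharp there than in deep cells, where the others held 3.63 CPM.

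The label of the cells as neurons was checked on its markers. Stmn2, which codes for a tubulin-binding growth cone protein, stood at 2204, 4284 and 4243 CPM in injured and 1798, 1983 and 1925 CPM in other neurons of the naïve, day 7 and day 14 libraries. Its log2 ratio of injured over other neurons, taken here and below with 1 CPM added to each level, was 1.11 at day 7 and 1.14 at day 14. Snap25, a part of the vesicle fusion machinery, stood at 799.9, 393 and 598 CPM in injured and 858, 807 and 799 CPM in other neurons, a log2 ratio of -1.04 at day 7 and -0.42 at day 14. All 11 and 27 deep injured neurons of day 7 and day 14 held UMIs of both. Many of the 76 shallow injured neurons of day 7 held no UMI of Snap25, so the label rests on less there. As these 2 genes also helped to choose the neurons, their levels are given as a description.

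Across the genome, 12614 genes had at least 10 UMIs in the neurons of day 7 and 13641 in those of day 14. Of these, 1233 (9.77%) were at least 2-fold higher and 1311 (10.4%) at least 2-fold lower in injured neurons at day 7, and 799 (5.86%) and 1167 (8.56%) at day 14. The median log2 ratio over all of them was 0.04 at day 7 and -0.01 at day 14. Of 12535 genes measured at both days, 186 (1.48%) were at least 2-fold higher at both and 347 (2.77%) at least 2-fold lower at both, where 20% or more of the cells on the higher side also had to hold the gene. A gene counted as measured from 10 UMIs upwards, summed over both kinds of neuron. The limit on the share of cells did not weigh equally on both sides, as 11 of 87 injured and 41 of 137 other neurons of day 7 were deep. A gene found only in deep cells could thus meet it as lower but not as higher, and the counts with the limit depend on depth. Without the limit on the share of cells, 534 (4.26%) were at least 2-fold higher at both days and 663 (5.29%) at least 2-fold lower at both. In the gene groups that follow, a count at both days has no limit on the share of cells, so 4.26% and 5.29% are its background, and the count that also met the limit, with 1.48% and 2.77% as background, is given beside it. Each group is a list of genes chosen with results of these cells known, so its counts describe it and support no direction, and Atf3 and Sprr1a were left out of every count.

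**Figure D3:**
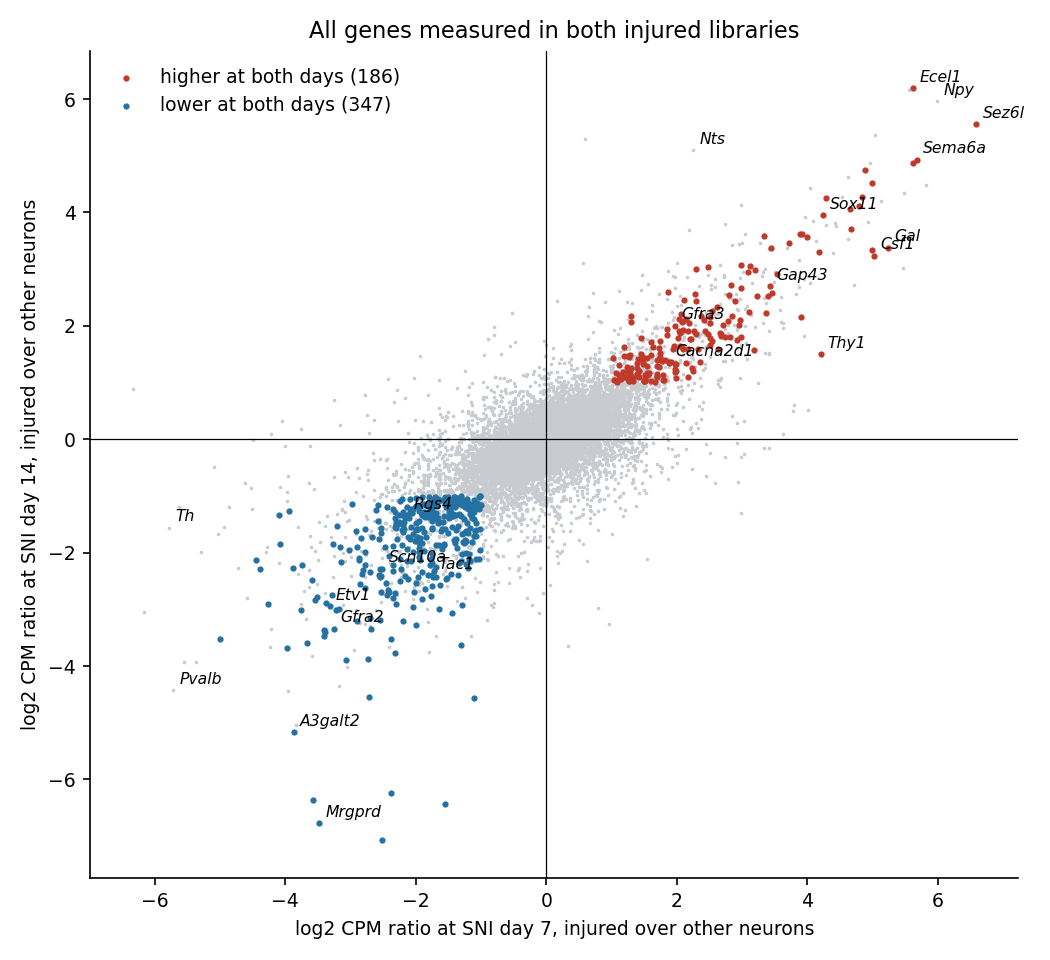
Each point is 1 of 12535 genes, with the log2 CPM ratio of injured over other neurons at day 7 on the x axis and at day 14 on the y axis, in red where the gene was at least 2-fold higher at both days (186), in blue where it was at least 2-fold lower at both (347), each with the limit on the share of cells holding it, and in grey otherwise. Ecel1, Sez6l and Sema6a lie far to the upper right, Mrgprd and A3galt2 to the lower left, and Nts lies higher at day 14 than at day 7.

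Transcription factors known from axon injury stood higher. Of the 19 on the list, 13 were at least 2-fold higher at day 7 and 7 at day 14, 7 at both (7 with the limit on the share of cells), and none was 2-fold lower, with a list median of 1.12 and 0.91 on the log2 scale. Sox11, a factor of developing and regrowing neurons, had the largest difference at each day. It stood at 533, 1882 and 1212 CPM in injured and 77.6, 98.6 and 77.0 CPM in other neurons of the naïve, day 7 and day 14 libraries. The log2 ratio was 4.24 (counting interval 4.12 to 4.39) at day 7 and 3.96 (3.86 to 4.09) at day 14. In deep cells of day 7 injured neurons ran from 269 to 2900.3 CPM with a median of 2142, and all 11 lay above the highest other neuron, at 204 CPM. At day 14 they ran from 158 to 2813 CPM with a median of 1401, and 22 of 27 lay above the highest other neuron, at 463 CPM.

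Klf6, a zinc finger factor linked to axon regrowth, had log2 ratios of 2.92 at day 7 and 1.74 at day 14. Jun, the AP-1 partner of Atf3, stood at 218, 366 and 322 CPM in injured and 54.3, 89.9 and 92.7 CPM in other neurons, a log2 ratio of 2.01 at day 7 and 1.79 at day 14. The cells overlapped more for Jun than for Sox11, since 4 of 11 and 2 of 27 deep injured neurons lay above all others. Smad1, which carries bone morphogenetic protein signals, had ratios of 1.5 and 1.43, and Csrp1, a LIM domain protein, of 1.63 and 1.62. Stat3, which carries cytokine signals from the axon and acts mainly through its phosphorylation, lay close to 0, at 0.11 (-0.01 to 0.22) and -0.03 (-0.11 to 0.06).

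Genes of axon growth and the cytoskeleton stood higher. Of 29 measured, 20 were at least 2-fold higher at day 7 and 19 at day 14, 18 at both (14 with the limit), none was 2-fold lower, and the median log2 ratio was 1.42 and 1.34. Gap43, a protein of the growth cone membrane, stood at 1366, 3094 and 3368 CPM in injured and 212, 287 and 519 CPM in other neurons. Its log2 ratio was 3.43 (3.35 to 3.52) at day 7 and 2.70 (2.65 to 2.75) at day 14. Deep injured neurons of day 7 ran from 858 to 5672 CPM with a median of 4214, against a median of 68.5 and a highest value of 1250.3 in the others. At day 14 the medians were 3431 and 177 CPM. The groups overlapped, with 10 of 11 and 21 of 27 injured neurons above every other neuron and 1 injured neuron of day 14 as low as 37.6 CPM.

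Ecel1, a neuronal peptidase-like membrane protein, was nearly confined to the injured neurons among deep cells. It had a UMI in 10 of 11 deep injured neurons against 2 of 41 others at day 7, and in 24 of 27 against 5 of 83 at day 14. Its summed level was 238 against 3.86 CPM at day 7 and 178 against 1.46 CPM at day 14, log2 ratios of 5.62 and 6.19. The class V beta-tubulin gene Tubb6 had ratios of 4.99 and 4.53. Stmn4, of the same family as Stmn2, had 4.84 and 4.27, and Flrt3, a membrane protein of adhesion and guidance, 4.66 and 3.70. In deep cells all 11 injured neurons of day 7 and 24 of 27 of day 14 lay above every other neuron for Flrt3. The neuronal tubulin gene Tubb3, abundant in all neurons, stood at 5447 against 2253 CPM at day 7 and 6506 against 2386 CPM at day 14, a difference of 1.27 and 1.45 on the log2 scale. Dpysl2, a tubulin-binding protein of growing axons, was the lowest of the list, at -0.42 and -0.05. Anxa1, a phospholipid-binding protein, had ratios of 5.81 and 4.48, but 58.3% and 49.6% of its UMIs in injured neurons came from 1 cell, and a UMI was found in 2 of 11 and 6 of 27 deep cells.

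**Figure D4:**
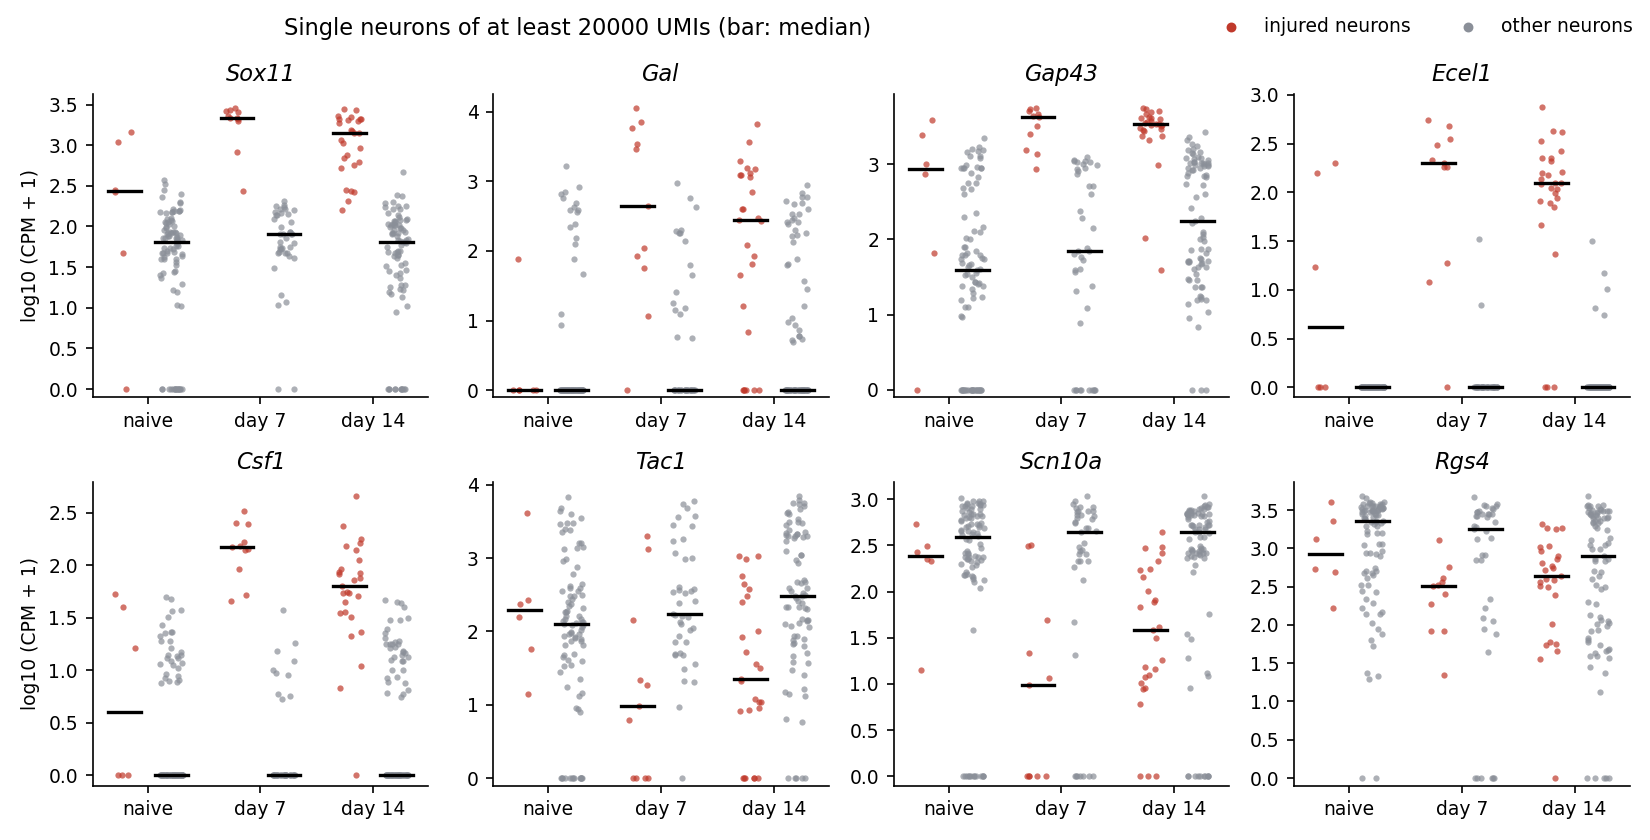
Each point is 1 neuron of at least 20000 UMIs, injured (red) or other (grey), in the naïve, day 7 and day 14 libraries, with its level as log10 of CPM plus 1 on the y axis and the median as a bar. Sox11, Gap43, Ecel1 and Csf1 had little or no overlap at day 7, Gal spread from 0 to its highest values among injured neurons, and Tac1, Scn10a and Rgs4 had lower medians in injured neurons of day 7 and day 14.

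Neuropeptides and secreted factors had the highest median ratio of all lists at both days, and several varied widely among the injured neurons. Of the 20 on the list, 11 were measured at day 7 and 14 at day 14, of which 9 and 10 were at least 2-fold higher, 8 at both (3 with the limit), and 1 and 0 2-fold lower, with a median log2 ratio of 4.01 and 2.91. Gal, the gene of the neuropeptide galanin, stood at 9.8, 2098 and 708 CPM in injured and 45.6, 54.6 and 67.2 CPM in other neurons of the naïve, day 7 and day 14 libraries. The log2 ratio was 5.24 (5.09 to 5.45) at day 7 and 3.38 (3.27 to 3.53) at day 14, while in the naïve library the level was lower in the 6 injured neurons. Among deep injured neurons Gal ran from 0 to 11389.7 CPM at day 7 (median 434) and from 0 to 6658 CPM at day 14 (median 272). The highest cell gave 33.6% and 24.6% of the Gal UMIs of injured neurons, and 5 of 11 and 9 of 27 lay above the highest other neuron.

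Nts, the gene of neurotensin, differed between the days, with 119 against 24.3 CPM at day 7 and 1098 against 31.0 CPM at day 14, log2 ratios of 2.25 and 5.10. In the naïve library it stood at 696 against 21.8 CPM. The highest cell gave 45.7% and 40.9% of its UMIs in injured neurons of day 7 and day 14. Npy, the gene of neuropeptide Y, had 126 UMIs in injured and 2 in other neurons at day 7 and 231 and 2 at day 14 (log2 ratios 5.98 and 5.97), with 74.6% and 38.5% from 1 cell. It was found in 4 of 87 and 11 of 33 injured neurons, of which 3 and 6 were deep. Where a cell was said to carry a gene at 2 UMIs and 50 CPM or more, 18 of the 27 deep injured neurons of day 14 carried Gal, 17 carried Nts and 10 carried both, and at day 7 the numbers were 9, 4 and 3 of 11. Npy was carried by 2 deep injured neurons at each day, and over all depths by 3 of 87 and 6 of 33, of which 2 at each day also carried Gal.

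Csf1, a growth factor of macrophages and microglia, was found in all deep injured neurons of day 7. It stood at 17.6, 138 and 85.2 CPM in injured and 5.5, 3.28 and 8.13 CPM in other neurons, a log2 ratio of 5.02 at day 7 and 3.24 at day 14. All 11 deep injured neurons of day 7 lay between 45.1 and 327 CPM, above the highest other neuron at 36.4 CPM, and 18 of 27 did so at day 14. Inhbb, an activin subunit, had ratios of 5.61 and 4.88. Fgf3, a fibroblast growth factor, had 124 UMIs in injured neurons and 0 in the others at day 14, which makes it at least 128-fold higher against a floor of 3 counts over the group, and 92 against 5 UMIs at day 7. Bdnf, a neurotrophin that sensory neurons make, was lower than in the other neurons at day 7, at -1.13 (-1.42 to -0.86) and -0.05 (-0.23 to 0.11).

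Of 21 enzymes, receptors and stress genes measured at day 7 and 22 at day 14, 12 and 11 were at least 2-fold higher, 10 at both (5 with the limit), and 2 and 1 2-fold lower, with a median of 1.25 and 0.99. Sez6l, a membrane protein of the seizure-related family, had 243 against 1.54 CPM at day 7 and 194 against 3.13 CPM at day 14, log2 ratios of 6.59 and 5.56. A UMI of it was found in 9 of 11 deep injured neurons against 3 of 41 others at day 7, and in 22 of 27 against 7 of 83 at day 14. Cckbr, a cholecystokinin receptor, had 93 against 2 UMIs and 287 against 3 UMIs, log2 ratios of 5.55 and 6.16 with counting intervals of the ratio without added CPM of 5.48 to 10.44 and 6.65 to 10.50. The orphan receptor gene Gpr151 had 4.96 and 4.87, from 3 and 5 UMIs in other neurons. Gadd45a, a stress gene of growth arrest, had 3.53 and 2.91, with 10 of 11 and 19 of 27 deep injured neurons above every other neuron. Hmox1, which breaks down haem, went the other way, at -1.08 and -2.12.

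Peptides of nociceptors and itch neurons were mostly lower. Of 10 listed, 7 were measured at day 7 and 8 at day 14, of which 6 and 5 were at least 2-fold lower, 5 at both (4 with the limit), and 0 and 1 2-fold higher, with a median of -1.74 and -1.55. Tac1, the gene of substance P, stood at 653, 250.3 and 188 CPM in injured and 421, 841 and 996 CPM in other neurons of the naïve, day 7 and day 14 libraries. The log2 ratio was -1.74 (-1.91 to -1.59) and -2.40 (-2.53 to -2.29) at day 7 and day 14. Deep injured neurons had a median of 8.67 CPM against 171 at day 7 and 21.3 against 308 at day 14, and the ranges overlapped, since single injured neurons reached 1985 and 1074 CPM. Calca, the gene of calcitonin gene-related peptide, had ratios of -1.23 and -2.01, its paralog Calcb -2.06 and -1.3, and Nmb, the gene of neuromedin B, -1.23 and -1.79. Sst, the gene of somatostatin, had no UMI in injured neurons of either day against 75 and 200 in the others, at least 7.01-fold and 21.5-fold lower.

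Ion channels of sensory transduction were more often 2-fold lower than 2-fold higher. Of 18 TRP, Piezo, ASIC and purinergic channel genes, 14 were measured at day 7 and 17 at day 14. Of these, 5 and 7 were at least 2-fold lower, 4 at both (4 with the limit), beside 10.4% and 8.56% of all measured genes. The 2-fold higher ones were 2 and 2, 1 at both (0 with the limit), beside 9.77% and 5.86% of all measured genes. The median was -0.07 and -0.34 (or -0.24 at day 14 with genes at 0 set to their bound). Piezo2, the channel of light touch, stood at 53.0 against 483 CPM at day 7 and 107 against 401 CPM at day 14, ratios of -3.16 and -1.90. Trpa1, the channel for irritants, had -3.21 and -1.53, and the acid-sensing channel gene Asic2 -1.76 and -1.35. The purinergic channel gene P2rx5 had 2.34 and 1.80, from 13 and 19 UMIs in injured neurons.

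Sodium channel genes lay lower. Of 13, 9 were at least 2-fold lower at day 7 and 6 at day 14, 6 at both (3 with the limit), and none was 2-fold higher, with a median of -1.5 and -0.68 (or -1.34 at day 7 with genes at 0 set to their bound). Scn10a, the channel Nav1.8 of nociceptors, stood at 249, 92.8 and 100.4 CPM in injured and 472, 535 and 492 CPM in other neurons. Its log2 ratio was -2.51 (-2.79 to -2.28) and -2.28 (-2.46 to -2.13). The median deep cell held 8.84 against 444 CPM at day 7 and 37.3 against 439.6 CPM at day 14, with overlap, as some other neurons held none. Scn11a, the channel Nav1.9, had -2.05 and -2.96. Scn1a had no UMI in injured neurons at day 7 against 96 in the others (at least 8.97-fold lower) and a ratio of -1.99 at day 14. Scn2a had 0.22 (-0.26 to 0.68) and 0.47 (0.17 to 0.78).

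Of 41 potassium channel genes, 39 were measured at day 7 and 40 at day 14, of which 16 and 16 were at least 2-fold lower, 13 at both (10 with the limit), and 2 and 2 2-fold higher, with a median of -0.74 and -0.71 (or -0.62 at day 14 with a gene at 0 set to its bound). The A-type channel gene Kcnd3 had -3.88 and -2.28, the small-conductance calcium-activated Kcnn1 -2.35 and -2.23, and the sodium-activated Kcnt1 -2.16 and -2.41. Kcnk18, the background channel TRESK, had no UMI in injured neurons at day 7 against 49 (at least 4.58-fold lower) and 1 against 74 at day 14, -2.72 (-9.90 to -2.06). Kcnmb4, an accessory subunit of the large-conductance channel, was higher, at 1.51 and 1.13. Kcnq3, of the M-type channel, had 1.13 and 0.98, but 75.3% of its UMIs at day 14 came from 1 cell.

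Calcium channel genes lay to both sides. Of 17, 5 and 4 were at least 2-fold lower at day 7 and day 14, beside 10.4% and 8.56% of all measured genes. The 2-fold higher ones were 2 and 1, near the 9.77% and 5.86% of all measured genes, and the median was -0.57 and -0.28. Cacna2d1, the alpha2delta subunit that gabapentin binds, stood at 592, 1538 and 1123 CPM in injured and 352, 416 and 435 CPM in other neurons. The log2 ratio was 1.88 (1.80 to 1.97) and 1.37 (1.3 to 1.43), and 6 of 11 and 8 of 27 deep injured neurons lay above every other neuron. Cacnb2 had 2.33 and 0.59, while Cacnb4, another beta subunit, had -1.86 and -1.38. Cacna1i, a T-type channel, had no UMI against 65 at day 7 (at least 6.08-fold lower) and 3 against 132 at day 14, -2.91 (-6.12 to -2.25).

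Among receptors of growth factors, Gfra3 and Gfra2 of the GDNF family lay to opposite sides. Gfra3, the receptor for artemin, stood at 96.1, 283 and 409 CPM in injured and 62.5, 71.6 and 101 CPM in other neurons, a log2 ratio of 1.97 at day 7 and 2.00 at day 14. Gfra2, the receptor for neurturin, stood at 231, 59.8 and 46.2 against 670.1, 578 and 477 CPM, a ratio of -3.25 and -3.34. Gfra3 was found in all deep injured neurons of both days, but also in 17 of 41 and 50 of 83 others, so the groups overlapped. Of the 12 receptor genes of the list, 1 and 1 were at least 2-fold higher and 3 and 2 lower, with a median of -0.27 and -0.45. Over all measured genes 9.77% and 5.86% were higher and 10.4% and 8.56% lower at day 7 and day 14. Osmr, the receptor subunit for oncostatin M, had -1.70 and -0.65.

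Of 14 opioid, GABA-B and other inhibitory receptor and signalling genes, 12 were measured at day 7 and 13 at day 14, of which 5 and 7 were at least 2-fold lower and 0 and 1 higher, with a median of -0.74 and -1.06. Rgs4, which shortens signals of G-protein coupled receptors, stood at 477 against 2096 CPM at day 7 and 694 against 1756 CPM at day 14, ratios of -2.13 and -1.34. The adenosine receptor gene Adora1 had -1.80 and -1.18. The nociceptin receptor gene Oprl1 had 2 against 101 UMIs at day 7, a ratio of -3.11 (-6.89 to -1.93), and -2.01 at day 14. Npy1r, a receptor of neuropeptide Y, had 0.36 (-0.01 to 0.73) and 1.64 (1.51 to 1.80).

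**Figure D5:**
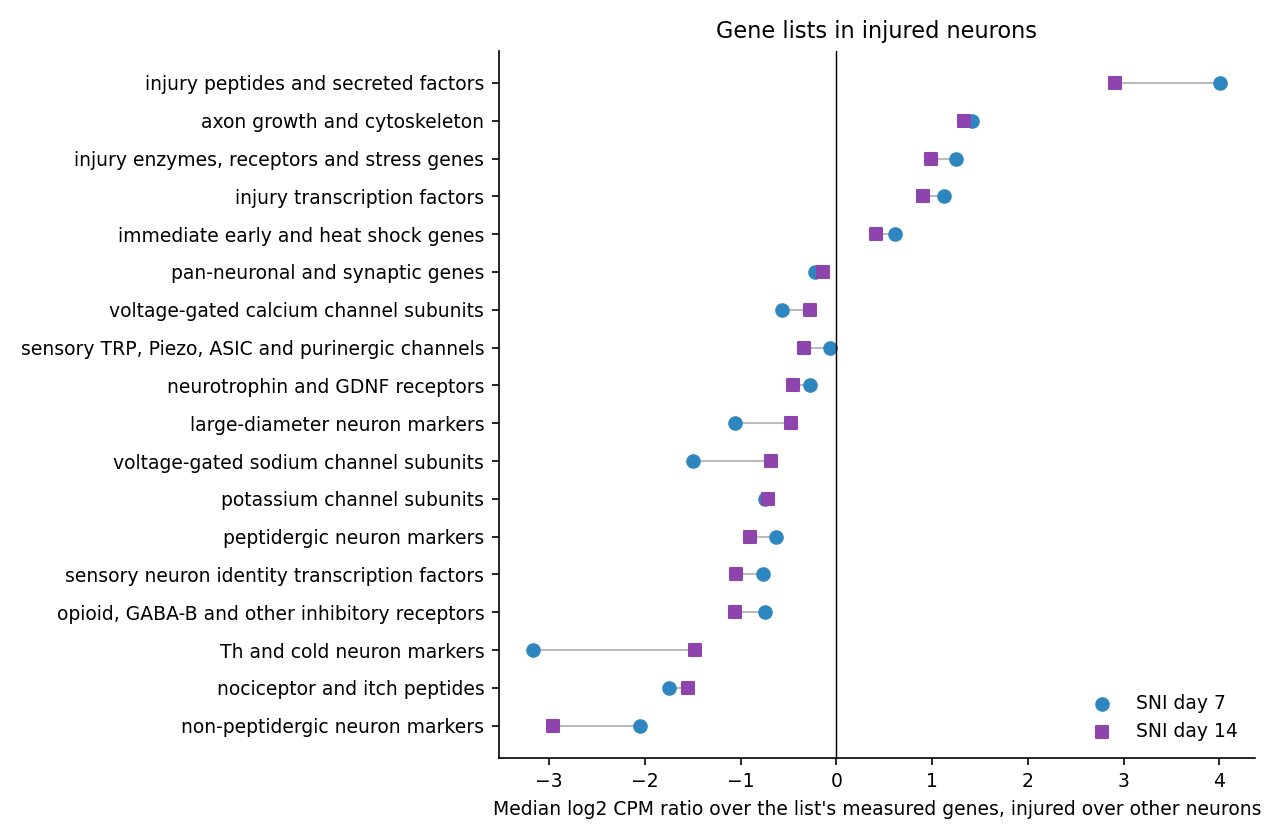
Median log2 CPM ratio of injured over other neurons (x axis) over the measured genes of each list (y axis), at day 7 (circles) and day 14 (squares), with a line joining the days. The 4 injury lists and the immediate early genes lie right of 0, and peptides of nociceptors and the markers of neuron types lie left of it.

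Transcription factors of sensory neuron identity were more often lower. Of 20 listed, 17 were measured at each day, of which 7 were at least 2-fold lower at day 7 and 9 at day 14, 6 at both (4 with the limit), and 3 and 0 2-fold higher, with a median of -0.77 and -1.05. Etv1, a factor of the ETS family, had -3.32 and -2.95. Prdm12, which nociceptors need to form, had -1.60 and -1.58, and Isl2 -2.30 and -1.47. Pou4f2, of the POU family, had 2 against 167 UMIs at day 7, -3.81 (-7.61 to -2.67), and -1.55 at day 14. Zeb2 had 1.55 and 0.82, but -0.28 in the shallow cells of day 7. Maf, known from touch neurons, had 1.49 and 0.18, and 0.60 in the deep cells of day 7.

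Of the markers of the types of sensory neuron, those of non-peptidergic, Th and cold neurons were mostly lower. The peptidergic and large-diameter ones were also more often 2-fold lower than 2-fold higher. All 9 measured markers of non-peptidergic neurons were at least 2-fold lower at day 7 and 8 of 9 at day 14, 8 at both (6 with the limit). The median was -2.05 and -2.96 (or -1.74 at day 7 with a gene at 0 set to its bound). Mrgprd, a receptor that marks most of these neurons, had 29 against 1210 UMIs at day 7 and 1 against 1382 at day 14, ratios of -3.48 (-4.13 to -3.02) and -6.78 (-14.11 to -6.32). It was found in 1 of 11 deep injured neurons against 15 of 41 others and in 1 of 27 against 23 of 83. Cd55, a complement regulator of the same neurons, had -2.32 and -3.77. The itch receptor gene Mrgpra3 had no UMI in injured neurons of any library, against 3, 30 and 34 in the others.

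Of the markers of Th and cold neurons 6 of 7 and 7 of 8 were at least 2-fold lower, 5 at both (2 with the limit), with 1 and 0 higher and a median of -3.16 and -1.48. Th, the gene of tyrosine hydroxylase, had 1 against 476 UMIs at day 7, -5.78 (-12.37 to -4.58), and -1.56 at day 14, where 76.6% of its UMIs came from 1 injured neuron. Slc17a8, a glutamate transporter of the same cells, was at 0 against 131 UMIs at day 7 (at least 12.2-fold lower). Of 10 large-diameter markers, 5 and 4 were 2-fold lower, 4 at both (1 with the limit), and 1 and 0 higher, 0 at both (median -1.06 and -0.48). Pvalb, the calcium-binding protein of proprioceptors, was at 0 against 267 UMIs at day 7 (at least 25-fold lower) and at 1 against 262 at day 14 (-4.42, -11.71 to -3.91). In the other deep neurons Pvalb came from 3 of 41 and 3 of 83 cells. Vsnl1, a calcium sensor, was at 0 against 36 UMIs at day 7 (at least 3.37-fold lower) and had -2.69 at day 14, and Spp1, the gene of osteopontin, had 0.78 and 0.07, and -1.66 in the deep cells of day 7. Of the peptidergic markers 3 of 8 and 4 of 9 were 2-fold lower, 3 at both (2 with the limit), and 2 and 0 higher, 0 at both (median -0.63 and -0.90). The highest of them at day 14 had -0.24, and Gpx3, a glutathione peroxidase, had -1.95 and -2.68. Which type an injured neuron belonged to before injury cannot be told apart from these markers, and fewer cells of a type and less RNA per cell give the same sum.

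Pan-neuronal and synaptic genes lay near the median of all genes. Of 24, 3 and 2 were at least 2-fold higher and 4 and 1 lower, with a median of -0.23 and -0.14. Thy1, a surface glycoprotein of neurons, had 503 against 26.2 CPM at day 7 and 666 against 235 CPM at day 14, ratios of 4.21 and 1.5. Its level in the other neurons thus differed more between the days than its level in injured neurons. The synaptic vesicle gene Syp had -1.26 and -1.65, and Vamp1 -1.24 and -0.75. Of 17 measured immediate early and heat shock genes, which dissociation of tissue is known to raise, 4 and 6 were 2-fold higher and 0 and 1 lower (median 0.61 and 0.42). Of these, Egr3 had 1.87 and 1.34 and Btg2 1.54 and 1.26. Their part in the differences of the injury genes was not tested.

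Outside the lists, the 12 genes that were highest by the smaller of both ratios, among the 186, had log2 ratios of 3.33 or more at each day. Sema6a, a semaphorin of axon guidance that sits in the membrane, led them with 376 against 6.36 CPM at day 7 and 220.4 against 6.25 CPM at day 14, ratios of 5.68 and 4.93. Kif22, a kinesin known from dividing cells, had 4.89 and 4.76 and was found in all 11 and all 27 deep injured neurons, with 9 and 25 of them above every other neuron. Bcat1, an enzyme of branched-chain amino acids, had 4.29 and 4.26, and Chst2, a sulfotransferase of sugar chains, 4.79 and 4.11. Lmo7, of the LIM domain proteins, had 4.65 and 4.07, and Mmp16, a matrix metalloproteinase of the membrane, 3.99 and 3.56. Wisp1, a secreted protein of the CCN family, had 3.89 and 3.62, Col5a3, a collagen chain, 3.44 and 3.38, and Xdh, xanthine dehydrogenase, 3.72 and 3.46. Phlda1 had 3.33 and 3.58, Pxdc1 4.98 and 3.33 and the predicted gene Gm5861 3.91 and 3.62.

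The 12 lowest genes outside the lists had ratios of -2.99 or less at each day. A3galt2, an enzyme that adds galactose to glycolipids, had 4 against 279 UMIs at day 7 (-3.87) and none against 335 at day 14, at least 36.1-fold lower. None of the deep injured neurons held it, against 20 of 41 and 29 of 83 others. Acpp, a phosphatase that marks non-peptidergic neurons, had 55.7 against 529 CPM and 62.9 against 512 CPM, ratios of -3.22 and -3.00, and Ly86, the gene of the secreted protein MD-1, had -3.58 and -6.36. Rasgrp1, an activator of Ras, had -3.38 and -3.40, Rph3a, a protein of synaptic vesicles, -3.41 and -3.37, and Kcnip2, a partner of A-type potassium channels, -3.66 and -3.60. Paqr5, a progestin receptor of the membrane, had -3.98 and -3.69, and the nicotinic receptor subunit gene Chrna6 -3.06 and -3.89. Rgs8 had 2 UMIs in injured neurons at day 7 (-5.00, -8.82 to -3.91) and -3.52 at day 14. Adam11 had -3.40 and -3.47, Rnf112 -3.76 and -3.02 and the kinase gene Camk1g -3.17 (-5.98 to -2.11, from 3 UMIs) and -2.99. At day 14, 1 injured neuron gave 85.2% of the Kcnip2, 76% of the Paqr5 and 72.9% of the Rph3a UMIs.

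The shallow injured neurons of day 7, compared with the shallow other neurons of that library, had smaller differences for the leading injury genes. The log2 ratio was 1.55 for Sox11, 1.46 for Gap43, 1.51 for Gadd45a, 1.23 for Gal and 1.01 for Cacna2d1, all below the values over all depths. Col5a3 had 2.72 and Inhbb 2.64. Klf6 (0.06), Cd55 (-0.22) and Rgs4 (-0.44) differed by less than 2-fold. Tac1 had -4.29 and Calca -1.67, larger differences than over all depths. The Tac1 value rests on few UMIs, as no shallow injured neuron of day 7 held more than 1 UMI of it. Over all depths, single deep injured neurons of day 7 held 192 and 147 UMIs of Tac1. The other shallow neurons held Sox11 at 286 CPM and Gap43 at 524 CPM, above the 98.6 and 287 CPM of all other neurons at day 7. The comparison of shallow cells was therefore made against neurons that held some of the same RNA.

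RNA of other cell types was also present in the injured neurons, and its level moved with depth. At day 7, 6 of 8 satellite glia markers, 4 of 8 Schwann cell markers, 8 of 8 macrophage markers and 3 of 4 red blood cell markers were at least 2-fold higher in injured neurons (medians 1.21, 0.99, 2.88 and 1.18), and at day 14 none was (medians 0.16, 0.05, -0.20 and 0.03). Markers of endothelial cells (0.53 and 0.37), mural cells (-0.58 and 0.17), fibroblasts (0.50 and -0.10) and lymphocytes and neutrophils (-0.31 and -0.13) had the medians given here for day 7 and day 14. Of 6 endothelial markers 2 were at least 2-fold higher at day 14, and in deep cells the markers summed to 64.0 against 30.1 CPM at day 7 and 115 against 37.4 CPM at day 14. Satellite glia markers took from 0% to 3.58% of the UMIs of an injured neuron at day 7 and from 0.0199% to 0.844% at day 14. In deep cells of day 7 they summed to 2154 against 1200.2 CPM and in shallow cells to 8668 against 4754 CPM. Schwann cell markers summed to 837 against 1376 CPM in deep and 7149.7 against 7281 CPM in shallow cells, and red blood cell markers to 37.3 against 37.7 and 1029 against 780.1 CPM. Of the macrophage UMIs 68.5% came from 1 injured neuron of 8637 UMIs, without which the level was 76.1 rather than 240 CPM, against 24.5 CPM in the others. In deep cells of day 7 the macrophage markers summed to 79.5 against 21.6 CPM. The median deep cell was nearly the same, with 0.00207% of its UMIs in injured and 0.00196% in other neurons, and the highest injured one held 0.0471%. Sox11 and Gap43 had log2 ratios of 4.51 and 3.61 in deep cells of day 7. The part of other cells' RNA in the differences of any gene, Sox11 and Gap43 among them, was not tested.

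The 6 injured neurons of the naïve library, all of them deep, were not alike. They held Atf3 at 56.2, 74.0, 546, 52.2, 69.8 and 122 CPM. The cell with 76863 UMIs held Atf3 at 546, Sprr1a at 755, Npy at 846, Nts at 3227, Gap43 at 3903 and Sox11 at 1444 CPM, and so lay within the range of the injured neurons of day 7 and day 14 for Atf3, Gap43 and Sox11. The cell with 65824 UMIs held 0 UMIs of Sprr1a and Sox11 at 45.6 CPM, with Calca at 5529.9 and Tac1 at 4147 CPM. For Sox11, Gap43, Flrt3 and Stmn4, 2 of the 6 lay above every other deep naïve neuron. The sums of this library, such as Sox11 at 533 against 77.6 CPM, thus rest on few cells.

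The series listed 3748, 3281 and 4908 barcodes in the naïve, day 7 and day 14 libraries, with 23107376, 22343246 and 36550911 UMIs. The libraries shared 1 (naïve and day 7), 6 (naïve and day 14) and 2 (day 7 and day 14) barcodes. Scrublet called 33, 36 and 41 of the barcodes as doublets (0.88%, 1.1% and 0.835%), among them 1 neuron and no injured neuron, and these cells were kept.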

How the data were processed

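Lumbar DRG cells of 3 groups, 1 library each (naïve, day 7 and day 14 after SNI), had been sequenced with 10x 3′ v3 chemistry. The authors deposited, for each library, a filtered matrix of UMI counts per gene and barcode, made with Cell Ranger 3.0.2 on build mm10 by the submitters' processing notes. The paper's text gives no methods for these libraries and names the injury as a partial ligation of the sciatic nerve, whereas the labels, which were followed, name SNI. How intronic reads were treated is not given in the sources used here.

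Counts were read in Python 3.11.15 (NumPy 2.4.6, SciPy 1.17.1, pandas 2.3.3), doublets were called with Scrublet in scanpy 1.11.5 and kept, and plots were drawn with matplotlib 3.10.9. UMIs of injured and of other neurons were summed within each library, scaled to CPM, and compared as a log2 ratio with 1 CPM added. Libraries differed in depth, so levels were compared within a library, and deep neurons (20000 UMIs or more) were also read cell by cell. A gene was called by size: at least 2-fold at both days, 10 UMIs or more in each library and a UMI in 20% of the cells of the higher kind. With 1 library per group and a contrast that the choice of cells itself made, no test was run. Intervals of shares are Clopper-Pearson, and those of ratios are exact binomial on the UMI counts, without the added CPM, so they can lie beside the printed ratio of a gene with few UMIs. Ratios against 0 UMIs are bounds from a floor of 3 counts over the group. Only the call by size was tested on simulated data, in which neurons of the same kind differed in depth alone. The simulation held no choice of cells by Atf3 and Sprr1a and no added RNA of other cells, so it does not cover these.

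The genes named are, for each list, mainly those highest and lowest by the smaller of both ratios, with a few well-known members added after their values were seen, and, outside the lists, the 12 highest and 12 lowest that also went the same way with every cell weighted equally. The injured neurons, the gene lists and the limits were chosen with earlier results of these data known. In all, 15 alternatives were planned and 1 was added later. Atf3 and Sprr1a stayed out of all counts of genes. Some genes of the lists are not reported here.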

Additional observations from a re-analysis of the deposited data

Results flagged for a closer look

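Pou4f3 and Foxp2, both transcription factors of sensory neuron identity, lay at least 2-fold to opposite sides in the 2 injured libraries and were picked for that. Pou4f3 had a log2 ratio of injured over other neurons of 1.54 at day 7 and -2.12 at day 14, from 22.7 against 7.14 CPM and 6.78 against 32.8 CPM. Foxp2 had 1.37 at day 7 and -1.17 at day 14, from 7.57 against 2.31 CPM and 1.94 against 5.63 CPM. The day 7 value was -0.83 for Pou4f3 where a UMI of both Atf3 and Sprr1a was required of each injured neuron, and -0.84 for Foxp2 with each cell weighted equally, so the opposite sides were lost there. The difference between the days was not tested, as each day is 1 library.

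Barcodes left out by the limits on detected genes and mitochondrial UMIs were read with the same criteria, and whether they were whole cells was not tested. Of those at day 7 that met the neuron criterion, 15 of 28 (53.6%) also met the Atf3 and Sprr1a limits, against 1 of 11 (9.09%) in the naïve library and 0 of 15 at day 14. Samples far from their group could not be looked for, since no group had more than 1 library.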

How the results depend on the processing

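No paired analysis was possible because there was a single library for every condition. The day 7 share of injured neurons, 38.8% as reported, was 28.2% with cells limited to 1000 genes or more and 10% mitochondrial UMIs or less, 31.9% with 5 of 6 neuronal markers at 0.5% of UMIs, 19.6% with at least 4 UMIs and 100 CPM, 21.4% with a UMI of each gene, 26% in cells thinned to 5000 UMIs and 21.2% at 20000 UMIs or more. At day 14 injured neurons were, in the same order of settings, 30 of 114, 31 of 123, 32 of 148, 29 of 148, 24 of 128 and 27 of 110 neurons. The day 14 share lay above that of day 7 with 4 UMIs and 100 CPM and at 20000 UMIs or more, and below it in the other settings. The naïve share, 4.65% as reported, was 1.55% with 4 UMIs and 100 CPM and 0.893% after thinning. Under 20000 UMIs, a setting added once the data had been seen, the naïve share was 0% and the day 14 share 15.8%.

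The 186 genes higher at both days became 484 with 1000 genes and 10% mitochondrial UMIs, 468 with 5 of 6 markers, 366 with 4 UMIs and 100 CPM, 313 with a UMI of each gene, 526 at 20000 UMIs or more, 91 with each cell weighted equally, 534 with no share of cells required and 40 under 20000 UMIs. The 347 lower genes became 524 with 1000 genes and 10% mitochondrial UMIs, 612 at 20000 UMIs or more, 166 with equal weights, 663 with no share of cells required and 16 under 20000 UMIs. Of the 186 and 347 genes, 184 and 345 were also called at 20000 UMIs or more, 80 and 118 with equal weights and 34 and 11 under 20000 UMIs. The share of called genes that were higher was 34.9%, and it was 46.2% at 20000 UMIs or more, 52.6% with 4 UMIs and 100 CPM and 71.4% under 20000 UMIs. With equal weights the median ratio of all genes at day 7 was -0.11.

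Of 199 gene ratios of at least 2-fold, 162 stayed at least 2-fold with equal weights, and under 20000 UMIs 88 of the 136 that could be formed did. Of these ratios, those that turned their direction were Pou4f3 at day 7 with a UMI of each gene (-0.83), Vamp1 (0.17) and Foxp2 (-0.84) at day 7 with equal weights, and, under 20000 UMIs, Calcb (0.40), Kcnn1 (0.063), Zeb2 (-0.28) and Vamp1 (1.04) at day 7 and Npy1r (-0.22) at day 14. The day 7 median of the red blood cell markers was -0.077 after thinning and -0.46 at 20000 UMIs or more. The cause of these shifts was not tested.

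Depth limits the shallow day 7 cells most, where 23 injured neurons rest on 2 UMIs and some neurons with 1 UMI count as others. The 11 deep injured neurons of day 7 carry most of that library's summed levels. Spread between mice could not be measured.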
